A study of Rattus norvegicus with 6 samples.

Results

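The miR-29 family is a group of small regulatory RNAs made from precursors that occur in pairs at separate places in the genome. Its 3p arms share a seed, the short stretch near the 5′ end that pairs with target messenger RNAs, and in mammals they are best known for lowering the messenger RNAs of collagens, elastin and fibrillin and of DNA methyltransferases. TGF-beta signalling lowers miR-29 in fibroblasts of several organs, and loss of miR-29 is a textbook feature of fibrosis. The matrix genes themselves were not measured on these arrays.

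Members were all array features of the design, control spots left out, whose name has the stem miR-29a, miR-29b or miR-29c, with either arm. The rule found 7 mature miRNAs of 758 on the array, measured with 20 of 1806 probes and 112 of 12128 miRNA spots per array. They are miR-29a-3p, miR-29b-3p and miR-29c-3p, with 6 probes together, and miR-29a-5p, miR-29b-1-5p, miR-29b-5p and miR-29c-5p, with 14 probes together.

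The samples were terminal hindgut, 1 cm long, from fetal Sprague Dawley rats at embryonic day 20. In the ARM group, 3 samples came from fetuses with anorectal malformation. Their dams had been given ethylenethiourea (ETU), a compound used in rats to induce such malformations, into the stomach on gestational day 10 (125 mg/kg). In the control group, 3 samples came from healthy fetuses, and control dams received distilled water on the same day. Per the labels, 4 dams were dosed with ETU. The labels do not give the dam of a fetus or say whether a sample is 1 animal, so the spread between samples may be partly technical, and p-values measure only that spread. Fetuses were sorted by whether the malformation was seen, and the labels do not say outright that every control fetus came from a water-treated dam. Where control fetuses were unexposed, ETU and the malformation cannot be told apart. The labelling protocol names a Cy3 kit for amplified cRNA, which is not the usual labelling for a miRNA array, so how the miRNAs themselves were labelled is not settled here.

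The mature sequences, from RefSeq on build GRCr8, are shown because the members differ so little that a reader should see what the probes had to separate. All 7 members matched an entry. Capitals mark the seed, bases 2 to 8 from the 5′ end.
miR-29a-3p: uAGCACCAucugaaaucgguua
miR-29b-3p: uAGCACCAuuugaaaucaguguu
miR-29c-3p: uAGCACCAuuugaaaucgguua
miR-29a-5p: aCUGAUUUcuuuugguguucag
miR-29b-1-5p: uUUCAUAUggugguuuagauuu
miR-29b-5p: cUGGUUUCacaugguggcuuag
miR-29c-5p: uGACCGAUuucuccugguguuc

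The 3 members of the 3p arm share the seed AGCACCA, and of 693 mature rat miRNAs in the table these 3 alone carry it. Counted from the 5′ end, miR-29a-3p and miR-29c-3p differ at 1 of 22 positions, C10U. miR-29a-3p and miR-29b-3p differ at 4 of 22 compared positions, C10U, G18A, U21G and A22U, and miR-29b-3p has 1 base more. miR-29b-3p and miR-29c-3p differ at 3 positions, A18G, G21U and U22A. The 5p arms have 4 different seeds, none of them the 3p seed. How far each probe separates near-identical 3p arms is not given in the sources used here, so the 3p values may share signal.

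The precursors lie in 2 clusters. Mir29a (chr4:60617955-60618042) and Mir29b1 (chr4:60618334-60618414) are on the minus strand of chromosome 4, with 291 bases between them, and Klf14 is the nearest protein-coding gene, 93670 bases from Mir29a. Mir29b2 (chr13:109098831-109098911) and Mir29c (chr13:109099359-109099446) are on the plus strand of chromosome 13, with 447 bases between them, inside the long non-coding gene LOC102550527, and the nearest protein-coding gene is Cd46, 4676 bases from Mir29c. Mature miR-29b-3p is the same from Mir29b1 and Mir29b2, so its signal belongs to no single cluster. By annotation, miR-29a-3p comes only from the chromosome 4 cluster and miR-29c-3p only from that on chromosome 13, although their probes may share signal.

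Only the 3p arms were detected. Of the 3p spots, 197 of 255 (77.3%) were well above background over the 6 arrays, against 0 of 372 spots of the 5p arms. Detection of a probe required that a share of 0.5 or more of its usable spots be well above background. All 3 members of the 3p arm had a detected probe on all 3 ARM and all 3 control arrays, and none of the 4 members of the 5p arm had one on any array. Before scaling, 5p probes read between -6.98 and 5.88 signal units on a scale where the dimmest detected probe of an array lay between 11.8 and 16.1. The 5p arms therefore have only a bound in both groups, and no fold is given for them. Of their 84 probe values, 59 fell under the floor of 1 after scaling.

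miR-29c-5p had 0 of 88 usable spots well above background. Its level (log2 of the scaled signal) in ARM was 1.78, 2.37 and 2.04 for replicates 1 to 3, and in control it was 1.17, 1.52 and 0.89. These values lie below detection in both groups and are given as values alone. On probe 1 the groups overlapped: ARM replicate 1 (1.13) read below control replicates 1 and 2 (1.26 and 1.36). On probe 2, also below detection, they did not. It read 2.42, 2.72 and 2.42 in ARM and 1.09, 1.67 and 1.78 in control.

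**Figure D1:**
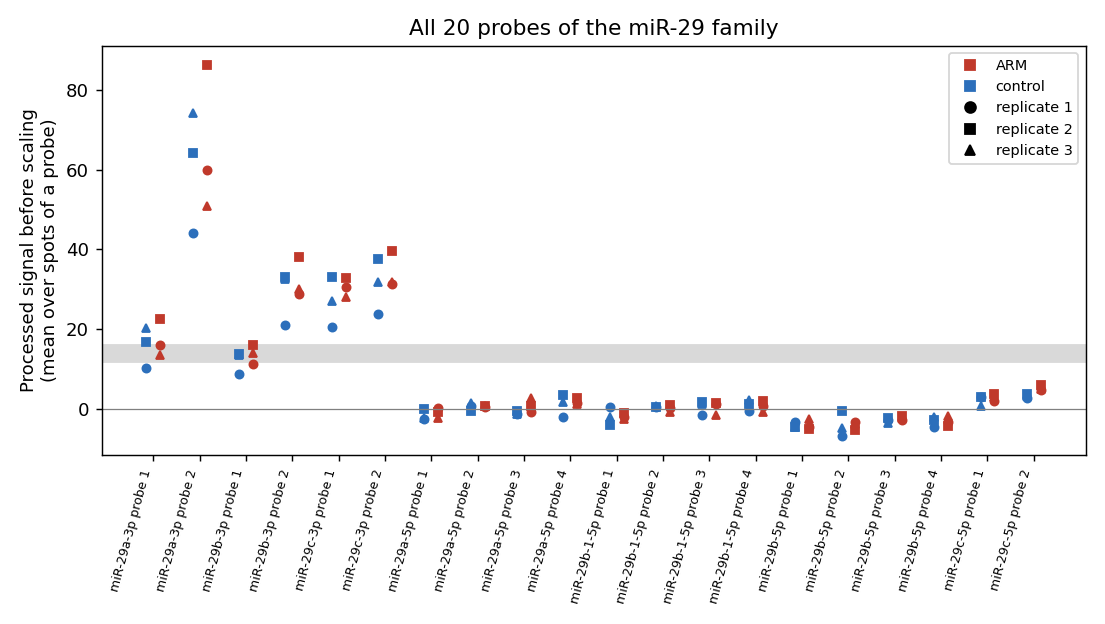
Processed signal before scaling (mean over the spots of a probe, linear axis) for each of the 20 miR-29 probes on the 6 arrays, ARM in red and control in blue, with a marker for each replicate. The grey band spans the dimmest detected probe of each array (11.8 to 16.1). All 14 probes of the 5p arms lie below it, and 5 of the 6 probes of the 3p arms reach above it on at least 3 arrays.

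Within the 3p arms the probes were unequal. For miR-29c-3p both probes were detected on every array, with all 81 usable spots well above background. For miR-29a-3p probe 2 was detected on every array, while probe 1 was detected on ARM replicates 1 and 2 and control replicate 3. For miR-29b-3p probe 2 was detected on every array and probe 1 on none, so that its level averages in a probe that was not well above background. The median spread between spots of a probe was 5.87% (coefficient of variation) for miR-29a-3p, 10.5% for miR-29b-3p and 7.63% for miR-29c-3p.

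The comparison of ARM with control addresses how miRNA levels differ when the terminal hindgut is malformed. The miR-29 3p arms were present in both groups at levels that the test did not separate. Each member had a mean that was higher in ARM by a factor near 1.4, and none of the 3 passed. The control replicates spread more widely than the ARM replicates for each of them. Levels are log2 of the scaled signal, averaged over the probes of a miRNA, where scaling set the arrays to a common 75th percentile of the 300 probes that every array detected.

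miR-29a-3p, the product of the chromosome 4 cluster alone, was at 5.16, 5.63 and 4.81 on the ARM arrays (replicates 1 to 3, and so throughout) and at 4.11, 4.79 and 5.34 on the control arrays. The groups overlapped: control replicate 3 lay above ARM replicates 1 and 3, and control replicate 1 was the lowest array. The means were 5.20 ± 0.41 and 4.75 ± 0.62 (SD, n = 3 each). The difference was 0.45 (SE 0.35; limma, adjusted p = 0.333), a fold of 1.37 with a 95% interval of 0.770 to 2.43.

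miR-29b-3p, the member made from both clusters, was at 4.39, 4.79 and 4.45 in ARM and at 3.46, 4.17 and 4.46 in control. The groups overlapped here too, through control replicate 3, and control replicate 1 was again the lowest array. The means were 4.54 ± 0.22 and 4.03 ± 0.52 (SD, n = 3 each). The difference was 0.51 (SE 0.28; limma, adjusted p = 0.200), a fold of 1.43 with a 95% interval of 0.899 to 2.27.

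miR-29c-3p, the product of the chromosome 13 cluster alone, was at 5.17, 5.33 and 4.99 in ARM and at 4.17, 4.90 and 4.94 in control. All ARM arrays lay above all control arrays, but by 0.05 at the closest, between ARM replicate 3 and control replicate 3. The same held for 60 of the 230 tested miRNAs (26.1%), so that such a gap is frequent here. The means were 5.16 ± 0.17 and 4.67 ± 0.44 (SD, n = 3 each). The difference was 0.49 (SE 0.25; limma, adjusted p = 0.168), a fold of 1.41 with a 95% interval of 0.935 to 2.12.

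**Figure D2:**
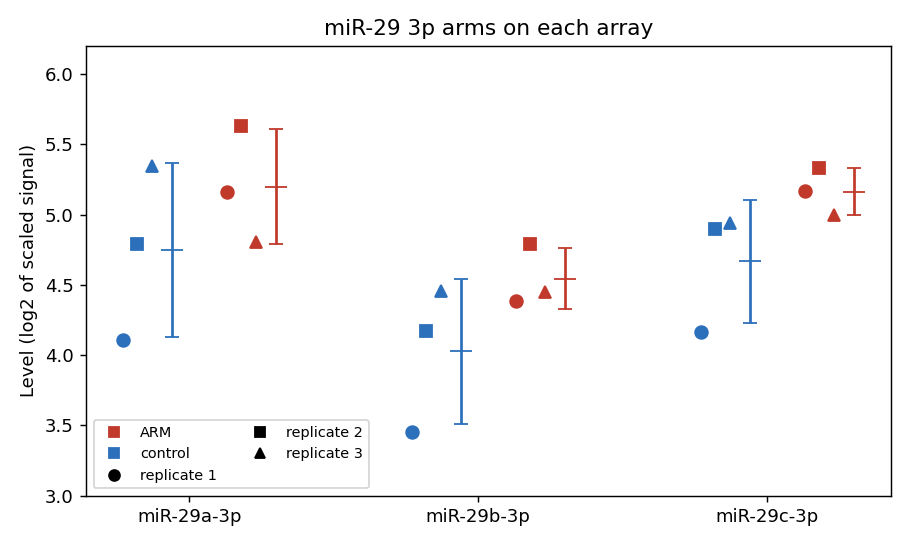
Level (log2 of the scaled signal) of the 3 detected miR-29 members on each array, control in blue and ARM in red, with a marker for each replicate and bars for mean ± SD (n = 3 each). Control replicate 1 is the lowest array for each member, and the groups overlap for miR-29a-3p and miR-29b-3p.

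Thus 0 of 3 tested members passed the limma test at an adjusted p below 0.05, and 0 of 3 had an unadjusted p below 0.05 (0.241, 0.112 and 0.0892 for miR-29a-3p, miR-29b-3p and miR-29c-3p), against 40.9% of the 230 tested miRNAs. That count depended on the processing: the unadjusted p was 0.0473 for miR-29b-3p and 0.0444 for miR-29c-3p with normexp background correction, 0.0424 for miR-29c-3p with probe sums and 0.0407 for miR-29b-3p without control replicate 3. After limma adjustment none of these passed (adjusted p = 0.103, 0.101, 0.0903 and 0.0784). Of all 230 tested miRNAs 31 passed (13.5%), 5 of them higher in ARM (2.17%) and 26 lower (11.3%). That split was 1 and 30 without scaling and 10 and 28 with quantile normalization. It was near even with probe sums (30 and 30), with array weights (37 and 50) and without control replicate 3 (43 and 49). The 95% intervals began at folds of 0.770, 0.899 and 0.935 for miR-29a-3p, miR-29b-3p and miR-29c-3p and ended at 2.43, 2.27 and 2.12. With 3 arrays a group a moderate rise was therefore not resolved for any of them. The intervals of miR-29b-3p and miR-29c-3p reached only slightly below 1, and that of miR-29a-3p reached further.

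All 3 differences were positive, as were those of 137 of the 230 tested miRNAs (59.6%), and the median over all tested miRNAs was 0.17. Relative to that median the 3 members were at 0.28, 0.34 and 0.32. In the order of all 230 differences from the highest down they stood at ranks 57, 48 and 49. Without scaling the median of all tested miRNAs moved to -0.13, and the members stood at 0.14, 0.20 and 0.18, which is 0.27, 0.33 and 0.31 above that median. With normexp the differences were 0.29, 0.28 and 0.30, and they stood 0.098, 0.091 and 0.11 above the median. That setting adds an offset of 50 to each signal, where the 3p probes had a median of 29.4 before scaling. Such an offset shrinks the log2 differences of dim miRNAs by construction.

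**Figure D3:**
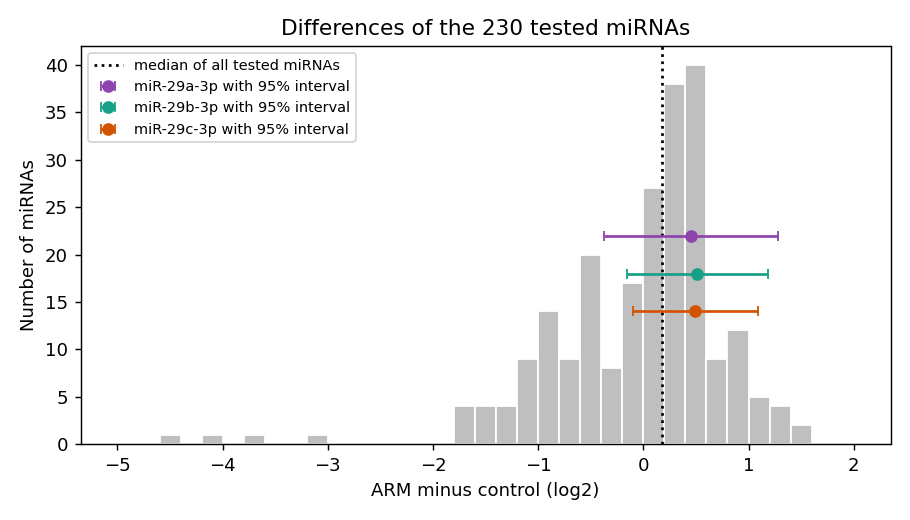
Histogram of the difference ARM minus control (log2) of the 230 tested miRNAs, with the 3 detected miR-29 members and their 95% intervals drawn over it at arbitrary heights and the median of all tested miRNAs (0.17) as a dotted line. Each interval includes 0 and the median.

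Of the single arrays, leaving out control replicate 1 lowered the differences most. Without it the differences were 0.13 for miR-29a-3p, 0.23 for miR-29b-3p and 0.24 for miR-29c-3p, which is 0.0051, 0.10 and 0.12 above the median of all tested miRNAs in that fit. Without ARM replicate 2 the differences were 0.24, 0.39 and 0.41, which is 0.035, 0.19 and 0.21 above the median in that fit. Without control replicate 3 they were 0.75, 0.73 and 0.63. None passed in any of these fits (lowest limma adjusted p 0.0784, for miR-29b-3p without control replicate 3). Slide 1 held 2 ARM and all 3 control arrays, and within it the differences were 0.65, 0.56 and 0.58; the remaining slide held 1 array.

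The single probes gave the same picture. In a fit over 390 probes detected on at least 3 arrays, the differences were 0.48 and 0.42 for probes 1 and 2 of miR-29a-3p, 0.49 for probe 2 of miR-29b-3p, and 0.52 and 0.47 for probes 1 and 2 of miR-29c-3p. No probe of the 5 passed (limma, adjusted p from 0.168 to 0.360). For miR-29c-3p, the member with both probes detected on all arrays, probe 2 read 0.04 to 0.27 above probe 1 within an array (log2). No such distance is given for the other 2 members, whose probe 1 was detected on 3 arrays or on none.

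The distances between members on an array were steadiest for 1 pair. The within-array difference of miR-29b-3p and miR-29c-3p was -0.78, -0.54 and -0.54 on the ARM arrays and -0.71, -0.72 and -0.49 on the control arrays. Its spread in control was smaller than that of either member between control arrays. The group means of this difference were -0.62 ± 0.14 and -0.64 ± 0.13 (SD, n = 3 each), 0.019 apart.

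Because their probes may share signal, the difference between miR-29a-3p and miR-29c-3p is no clean contrast of the chromosome 4 and chromosome 13 clusters. It was 0.04 ± 0.24 in ARM and 0.08 ± 0.28 in control. Between miR-29a-3p and miR-29b-3p it was 0.66 ± 0.26 and 0.72 ± 0.15, with ARM arrays from 0.36 to 0.84. In ARM both SDs were larger than those of miR-29b-3p (0.22) and miR-29c-3p (0.17) themselves. No difference between members was resolved: over the 3 pairs the difference between groups was -0.06, -0.04 and 0.02, with two-sided exact permutation p of 0.8, 0.7 and 1 (adjusted p = 1 for each), where the smallest p that 3 against 3 allows is 0.1. These small values took either sign under other processing.

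Of 22 other ways of processing, several gave the same values, and 16 gave differences unlike each other and unlike those reported. The 3 differences were positive in 15, 15 and 16 of these. The exception was the total gene signal, the scanner software's own sum per miRNA, where miR-29a-3p differed by -0.23 and miR-29b-3p by -0.50 while miR-29c-3p differed by 0.36, none of them passing (limma, adjusted p = 0.681, 0.564 and 0.374). On 5 of the 6 arrays the total gene signal of each member equalled the sum of its probe signals, as it did for miR-29c-3p on all 6. On control replicate 1 it was 86.7 for miR-29a-3p against a probe sum of 28.9, a ratio of 3.00, and 98.0 for miR-29b-3p against 15.8, a ratio of 6.18. With the probe sums in place of the total gene signal, an alternative chosen after these values were seen, the 3 differences were 0.53, 0.60 and 0.59.

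**Figure D4:**
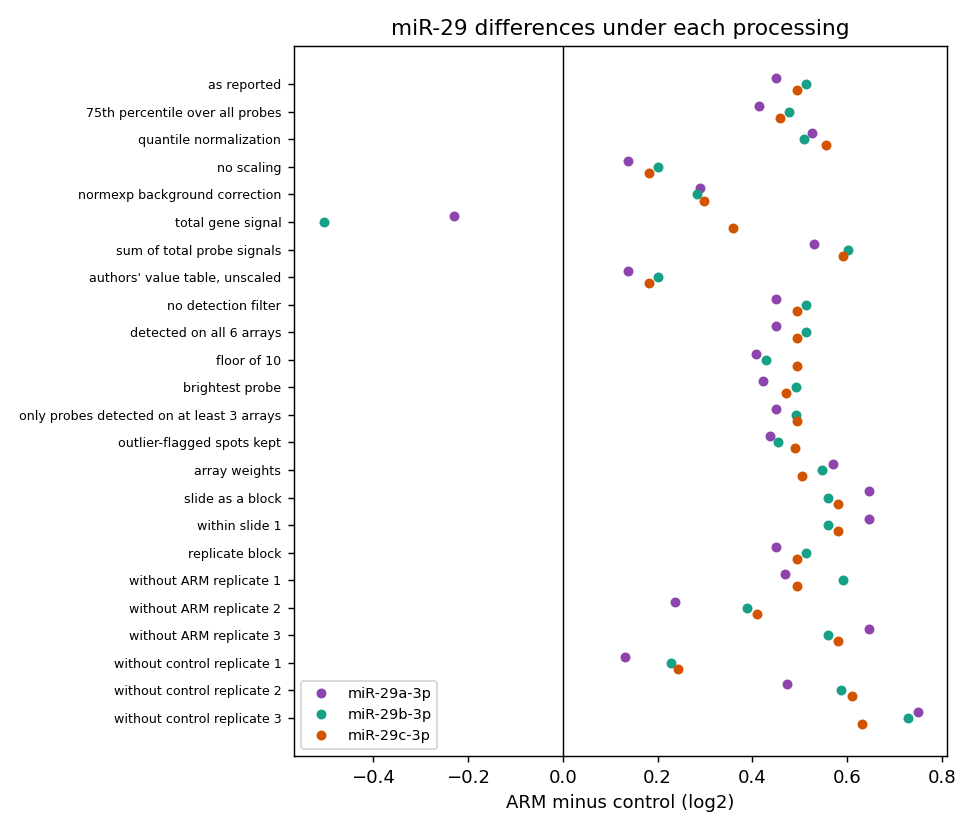
Difference ARM minus control (log2) of the 3 detected miR-29 members as reported and under 23 other processings, some of which give identical values (slide as a block, within slide 1 and without ARM replicate 3), with a line at 0. The points lie between 0.13 and 0.75 except under the total gene signal, where miR-29a-3p is at -0.23 and miR-29b-3p at -0.50.

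Opposite the miR-29 3p arms, the rat annotation places 3 further miRNAs whose mature sequences are reverse complements of them. They are shown because their probes would read the opposite strand of the same bases, and capitals mark the bases that pair with the miR-29 seed.
miR-3556a: cgauuucagaUGGUGCUa
miR-3587: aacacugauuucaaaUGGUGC
miR-3556b: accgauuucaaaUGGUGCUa

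miR-3556a (chr4:60617972-60617989, plus strand) lies opposite miR-29a-3p, miR-3587 (chr4:60618342-60618362, plus strand) opposite miR-29b-3p of Mir29b1, and miR-3556b (chr13:109099412-109099431, minus strand) opposite miR-29c-3p. Each was measured with 2 probes and detected on 0 of 6 arrays. Their probe signals lay between -4.83 and -0.54 for miR-3556a, between -4.62 and -0.05 for miR-3556b and between -1.73 and 4.76 for miR-3587. Each miR-29 member opposite them had a detected probe on all 6 arrays. Mature miR-29b-3p does not come from Mir29b1 alone, and the miR-29 probes may share signal. Which of these places gave the miR-29 signal was therefore not tested.

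The miRNAs whose levels across the 6 arrays lay nearest to the mean of the 3 miR-29 members were, in order, miR-21-5p, miR-195-5p, miR-425-5p, miR-15b-5p and miR-497-5p, of 227 other tested miRNAs. Likeness was the root mean square difference between levels centred on their own mean over the 6 arrays, and it was 0.14, 0.19, 0.20, 0.20 and 0.21 (log2) against a median of 0.45 over the 227. The centred miR-29 mean was 0.18, 0.53 and 0.02 on the ARM arrays and -0.81, -0.10 and 0.19 on the control arrays. All 5 miRNAs were, like it, lowest on control replicate 1. They were chosen by this likeness, so that low value and a similar difference between groups follow largely from the choice. Their own differences between groups were 0.33 to 0.52 and none passed (limma, adjusted p from 0.107 to 0.265). By sequence, miR-15b-5p, miR-195-5p and miR-497-5p share the seed AGCAGCA, which is not that of miR-29. miR-195-5p and miR-497-5p were dim, with levels from 2.75 to 3.79 and from 3.09 to 3.77. miR-21-5p is also on the list of miRNAs promoting matrix that is read below.

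**Figure D5:**
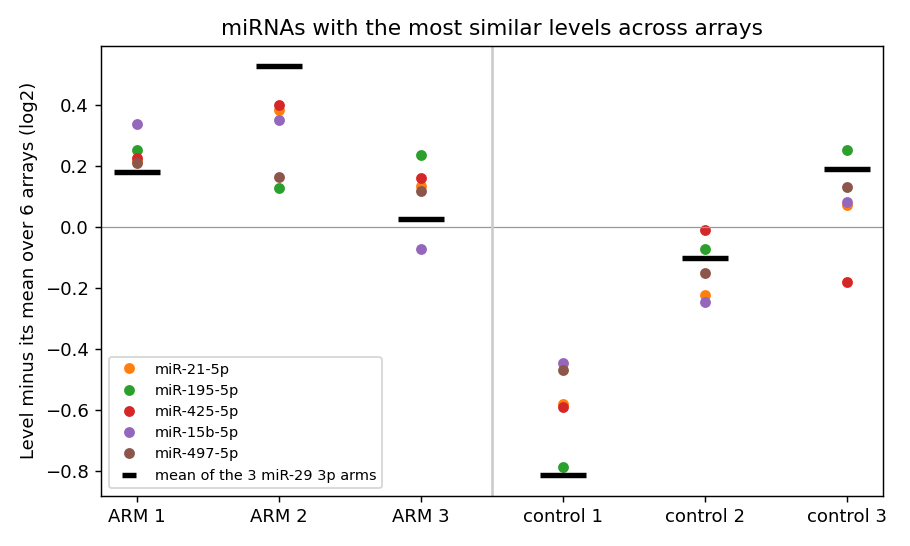
Level minus its own mean over the 6 arrays (log2) for the mean of the 3 detected miR-29 members (black bars) and for the 5 miRNAs nearest to it (coloured points), by array. Control replicate 1 is lowest for each of them, with miR-29 at -0.81, and the 5 miRNAs were chosen for their likeness to this profile.

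Other miRNAs reported to act on matrix and fibrosis were read beside the family. Of 15 listed as restraining collagen or TGF-beta signalling, 14 were tested, 2 fell, none rose and 12 did not pass, with a median of 0.29 (11 of 14 positive). Over all tested miRNAs 11.3% fell, 59.6% were positive and the median was 0.17, so the count that fell lies near the background. The 2 that fell were miR-133b-3p of striated muscle, by 3.16 on the log2 scale (SE 0.55), and miR-122-5p of hepatocytes (limma, adjusted p = 0.0330 for each). miR-122-5p was detected on all control arrays but on only 1 of 3 ARM arrays, so its fold is a bound, at least 8.16-fold lower with the undetected probes set to the dimmest detected probe of their array where they lay below it. With normexp, where an offset of 50 shrinks differences of dim miRNAs, its fitted difference was -1.38. No miRNA passed, these 2 included, when ARM replicate 3, control replicate 1 or control replicate 2 was left out (limma; 78, 62 and 73 of all miRNAs then had an unadjusted p below 0.05). Both are defining miRNAs of other cell types, so this list is not a measure of matrix alone. miR-133a-3p of striated muscle, detected on 1 of 3 ARM arrays, had a fitted difference of -1.61 and did not pass (limma, adjusted p = 0.0631). It did pass with the 75th percentile over all probes, quantile normalization and a floor of 10 (limma, adjusted p = 0.0473, 0.0387 and 0.0491). The 4 members named for their mean level over all 6 arrays did not pass: for miR-26a-5p the difference was 0.42 (SE 0.21), for let-7d-5p 0.26 (SE 0.19) and for miR-19b-3p 0.43 (SE 0.20). The epithelial miR-200b-3p differed by 0.99 (SE 0.39).

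Of 10 miRNAs listed as promoting matrix, 9 were tested and none passed (limma; 2 had an unadjusted p below 0.05), with a median of 0.13 (5 of 9 positive). The mesenchymal miR-199a-3p differed by -0.29 (SE 0.19) and miR-214-3p by -0.33 (SE 0.19), the smooth muscle miR-143-3p by 0.47 (SE 0.24) and the epithelial miR-192-5p by 1.33 (SE 0.52). Without scaling 2 of this list fell, miR-199a-3p by 0.61 (SE 0.14) and miR-214-3p by 0.64 (SE 0.14; limma, adjusted p = 0.0491 for each). Without scaling the medians of the 2 lists were -0.023 and -0.18, beside -0.13 for all tested miRNAs.

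Marker lists of other cell types differed in whether their summed signal separated the groups. Such separation was frequent: taken singly, 112 of the 230 tested miRNAs (48.7%) had groups that did not overlap. A sum is carried mostly by the brightest members of its list. The summed scaled signal of 10 intestinal epithelium miRNAs, all tested and 0 of them passing, ran from 1692 to 2686 in ARM and from 526 to 1504 in control. That sum was lowest, like miR-29, on control replicate 1. All 10 had a positive difference, with a median of 1.01 (log2). Over all tested miRNAs 59.6% were positive and the median was 0.17. Of 7 striated muscle miRNAs 4 were tested and 3 fell (11.3% of all tested miRNAs fell), and the sum of the list ran from 90.1 to 247 in ARM and from 759 to 3390 in control, highest on control replicate 1. miR-499-5p, miR-208a-3p and miR-208b-3p of that list were detected on no array. The 5 mesenchyme miRNAs, all tested with none passing, summed to between 2425 and 2961 in ARM and between 3067 and 3866 in control. Both tested erythroid miRNAs fell, with a list sum of 69.6 to 108 in ARM and 206 to 372 in control, and the liver list holds miR-122-5p alone. The 2 stratified epithelium miRNAs summed to between 58.8 and 72.0 in ARM and between 43.2 and 56.3 in control, with none passing. For smooth muscle, endothelium, leukocytes and neurons and glia the sums overlapped between the groups and no tested miRNA passed. Tested were 2 of 3, 1 of 2, 3 of 5 and 2 of 8 listed miRNAs, in that order. Of the neurons and glia list 4 were detected on no array. Of its tested members miR-128-3p differed by -1.39 (SE 0.40, limma, adjusted p = 0.0585), with all ARM arrays below all control arrays. The brighter miR-212-3p differed by 0.014 (SE 0.22). Before scaling, the 75th percentile was 203 to 221 in ARM and 225 to 290 in control. The part of cell makeup and of array brightness in the miR-29 values was not tested. In bulk tissue, fewer cells of a type and less RNA per cell cannot be told apart.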

How the data were processed

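RNA of 6 samples had been hybridised, per the labels, to one-colour Cy3 arrays; the label protocol names a cRNA kit. Per the file headers, the authors' intensity values came from Agilent Feature Extraction 10.7.1.1, which subtracted background and removed spatial trends, with no scaling between arrays. The deposited value table held the same intensity for every feature (largest difference 0), so it is linear, uncentred and unscaled. Column medians were 2.10, 2.61 and 2.84 (ARM) and 2.44, 3.16 and 1.84 (control). The 0 or 1 spot flags are the scanner software's.

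Control and outlier-flagged spots were left out and spots averaged per probe. Arrays were scaled to a common 75th percentile of the 300 probes that all 6 detected, floored at 1, converted to log2 and averaged over the probes of a miRNA. A miRNA with a probe detected on at least 3 arrays was tested (230). Groups were compared with limma 3.58.1 (R 4.3.3) and Benjamini-Hochberg adjustment over all 230, after tests on simulated data. No spot was saturated. The number of arrays limits precision.

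Named are all members, the 5 nearest miRNAs, and of each matrix list the 4 with the highest level and those that passed. The last includes passing with other scaling, background or floor. Some members of the marker lists are named as well. Other alternatives varied scaling, background, filter, floor, probes, weights, slide and replicates. Members and lists were chosen with earlier results of these data known.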

Additional observations from a re-analysis of the deposited data

How the results depend on the processing

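No alternative moved a miR-29 member past the threshold: over 22 other ways of processing (19 different fits) and the probe sums, which were added after seeing the data, the limma adjusted p ranged from 0.113 to 0.771 for miR-29a-3p, 0.0784 to 0.602 for miR-29b-3p and 0.0903 to 0.590 for miR-29c-3p. With 1 array left out in turn the differences ran from 0.13 to 0.75, 0.23 to 0.73 and 0.24 to 0.63. With the total gene signal they were -0.23 and -0.50 for miR-29a-3p and miR-29b-3p. The differences between members, close to 0, changed sign often. For miR-29a-3p minus miR-29b-3p the value was 0.017 with quantile normalization, 0.0063 with normexp, 0.28 with the total gene signal, 0.024 with array weights and 0.087 with slide as a block or within slide 1. For miR-29a-3p minus miR-29c-3p it was 0.066 with array weights and 0.067 with slide as a block or within slide 1. For miR-29b-3p minus miR-29c-3p it was -0.045 with quantile normalization, -0.016 with normexp, -0.86 with the total gene signal, -0.066 with a floor of 10, -0.0034 with probes detected on at least 3 arrays, -0.036 with outlier-flagged spots kept and -0.020 with slide as a block or within slide 1. With 1 array left out these ran from -0.15 to 0.087, from -0.17 to 0.12 and from -0.024 to 0.097. Without scaling the medians of the matrix lists were -0.023 and -0.18. Over all tested miRNAs the calls numbered 16 with normexp, 14 with the total gene signal, 60 with the probe sums, 87 with array weights, 0 when undetected miRNAs were kept and 0 with slide as a block or within slide 1 (limma, 134 and 78 with an unadjusted p below 0.05), and 0 to 92 with 1 array left out (92 without control replicate 3, 10 and 6 without ARM replicates 1 and 2, and 0 without ARM replicate 3, control replicate 1 or control replicate 2). The cause of these changes was not tested. For the total gene signal of miR-29 the mismatch was located on control replicate 1, but what makes it was not tested either. With the replicate number as a block the calls numbered 0 (limma, 73 with an unadjusted p below 0.05) and the 3 members kept their differences, with adjusted p = 0.391, 0.209 and 0.222. Same-numbered samples did not deviate together (correlations of -0.067, -0.28 and -0.21). These are deviations from group means of 3 arrays and constrain one another, so they cannot exclude a shared dam or litter. The labels give no pairing beyond the number. Signal over background limits miR-29b-3p, of which probe 1 was never detected, and all 5p arms.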

Other observations

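The mismatch of the total gene signal seen for miR-29a-3p and miR-29b-3p on control replicate 1 was not particular to them. Among the miRNAs that the scanner software called detected, the total gene signal differed by more than 1% from the sum of the probe signals for 78 of 249, 88 of 259 and 98 of 295 on ARM replicates 1 to 3 and for 82 of 272, 99 of 291 and 80 of 249 on control replicates 1 to 3. It lay above the sum for 73 to 88 of them per array. Control replicate 1 was the only array with a mismatch for the 2 miR-29 members. There, 0 of 6 usable spots of probe 1 of miR-29a-3p and 0 of 8 of miR-29b-3p were well above background. Probe 1 of miR-29b-3p also had none on control replicates 2 and 3, where the total gene signal of miR-29b-3p equalled the sum. What makes the mismatch was not tested.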
